A study of Mus musculus with 19 samples.

Results

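The genes described here are those of the cytosolic ribosomal proteins in the cornea and conjunctiva of mice on calorie restriction (CR) or fed ad libitum (AL). They were taken by symbol: every gene whose name begins with Rps or Rpl followed by a digit, with the stalk genes *Rplp0*, *Rplp1* and *Rplp2*. Kinases of ribosomal protein S6 (10 genes) and symbols marked as pseudogenes (6 genes) were left out. This gave 88 of the 24552 genes in each tissue. By role, 30 encode small subunit proteins, 43 large subunit proteins and 3 proteins of the stalk. Another 11 are paralogs or retrogenes, which are copies made from a reverse-transcribed mRNA, and *Rps19bp1* carries a matching symbol but encodes a binding partner of a ribosomal protein. The pattern does not take *Rpsa* and *Fau*, which also encode ribosomal proteins.

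The mice were C57BL/6 (female C57BL/6J in the study's methods). AL mice had free access to chow, and CR mice received a reduced daily ration for several months, reached in weekly steps and given shortly before the dark phase. The cornea gave 5 AL and 5 CR libraries, and the conjunctiva 4 AL and 5 CR libraries. All titles carry the marks 6M and 50W, and the labels do not explain the second. The mark 6M was read as an age of 6 months. By the study's methods that is about the age at which the diets began, so the mice were older at collection. The corneal epithelium was scraped from the eye and the conjunctiva was excised whole, so the conjunctival libraries can also hold stroma, vessels and muscle. The study ran 2 cohorts on different chow, and the labels do not tie a library to a cohort. In the second cohort the chow of CR mice held more vitamins and micronutrients than that of AL mice. There the smaller ration and the other chow cannot be told apart. Library values below are always listed in the order AL 1, 2, 3, 4, 5 and CR 1, 2, 3, 4, 7 for the cornea, and AL 1, 3, 4, 5 and CR 1, 2, 3, 4, 5 for the conjunctiva.

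A ribosome has a small (40S) and a large (60S) subunit, each a scaffold of ribosomal RNA that carries a fixed set of proteins present in a single copy, apart from the paired stalk proteins. Growing and renewing epithelia spend much of their transcription on these genes, and the messages are among the most abundant in any cell. Nearly all of them begin with a C followed by an unbroken run of C and T, the 5′ terminal oligopyrimidine (TOP) tract, through which nutrient sensing by mTOR controls how strongly they are translated. Food intake is therefore known to act on them at the level of translation, which counts of mRNA do not measure.

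The annotated start sites show such a tract in part. RefSeq promoter entries (build GRCm38.p6) matched 67 of the 88 genes, with 79 start sites. Within 10 bases before to 20 bases after the start, a C followed by at least 5 more bases that are each C or T was found at 50.6% of these sites, against 22% of all 32851 promoter entries. A run of at least 8 bases was found at 31.6%, against 8.68% of all entries. Both strands of the whole promoter entry, from 250 bases before to 50 bases after the start, were also searched for CCGGAAGT and AAGATGGC, the core letters bound by GABP and YY1. They were found at 13.9% and 10.1% of the sites, against 3.89% and 2.75% of all entries. The windows below are those of genes that return in the results. *Rpl14* and *Rpl18* were lower under CR in the cornea at an unadjusted p only, and did not pass the call over all libraries. The others had a wide (*Rpl28*, *Rpl35*, *Rplp2*, *Rpl41*) or narrow (*Rps10*, *Rps15a*, *Rps25*) spread between libraries. Capitals mark the longest run of C and T that begins with C.
*Rpl14*, chr9:120571507-120571536, plus strand: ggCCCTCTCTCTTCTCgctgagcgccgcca
*Rpl18*, chr7:45718061-45718090, plus strand: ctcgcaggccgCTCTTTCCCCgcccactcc
*Rpl28*, chr7:4792955-4792984, plus strand: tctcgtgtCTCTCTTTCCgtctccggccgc
*Rpl35*, chr2:39005112-39005141, minus strand: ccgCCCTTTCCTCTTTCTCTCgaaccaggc
*Rplp2*, chr7:141447641-141447670, plus strand: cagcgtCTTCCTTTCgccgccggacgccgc
*Rpl41*, chr10:128549149-128549178, minus strand: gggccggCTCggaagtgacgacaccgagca
*Rps10*, chr17:27635225-27635254, minus strand: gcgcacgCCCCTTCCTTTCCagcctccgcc
*Rps15a*, chr7:118116128-118116157, minus strand: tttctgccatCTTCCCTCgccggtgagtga
*Rps25*, chr9:44407704-44407733, plus strand: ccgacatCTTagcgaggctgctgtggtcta
*Rpl41* and *Rps25* have a run of only 3 letters at the annotated start, while the run of *Rpl35* is 18 letters long. A match describes the letters only.

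Each corneal library had 10354125 to 14681223 counted reads, and each conjunctival one 10726717 to 14433441. Values are normalized counts, which are reads divided by a library's size factor, and 3 reads corresponded to 2.27 to 3.37 normalized counts. Markers of corneal epithelium (*Krt12*, *Aldh3a1*, *Krt5*, *Pax6*) summed to 450580–658600 in the cornea and 79519–121260 in the conjunctiva. Those of fibroblasts (6 genes) summed to 425–2122 and 25864–58882. Markers of conjunctival epithelium (4 genes) did not separate the tissues, at 25595–63369 in the cornea and 26645–74179 in the conjunctiva. Among the corneas, CR 7 had the highest sum of these (63369) and the lowest of corneal epithelium markers (450580). The 2 hemoglobin genes were at 0 in every library. Lacrimal gland markers, of which 4 of 5 were listed, summed to 45.1–51982 in the AL and 0–10.4 in the CR corneas, with the highest value in AL 1, and to 32.2–162 and 0–9.97 in the conjunctiva. Macrophage markers (5 genes) summed to 2029–2791 in the AL and 1319–2009 in the CR conjunctivas, and to 270–376 and 117–279 in the corneas. Conjunctival fibroblast sums were 39250–58882 under AL and 25864–51295 under CR. The part of these differences in the results below was not tested.

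Together the 88 genes held 3.49% to 6.09% of all corneal reads. Under AL the shares were 6.09%, 5.08%, 5.32%, 3.49% and 5.38%, and under CR they were 5.99%, 3.97%, 3.84%, 4.63% and 3.82%. AL 4 lay below every CR library, and CR 1 lay near the top of the AL range, so the groups overlapped. The mean was 5.07% ± 0.962 under AL and 4.45% ± 0.925 under CR (SD, n = 5 each), a difference of −0.622 percentage points that is smaller than the pooled SD of 0.944. Without AL 4 the difference was −1.02 points, without CR 1 −1.01 and without AL 1 −0.368. The widest 95% Wilson interval of a share, which covers counting error only, reached 0.0144 points to either side. In bulk tissue, fewer cells of a kind that is rich in ribosomes and less such RNA per cell cannot be told apart.

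In the conjunctiva the shares were 4.49%, 5.98%, 5.69% and 4.46% under AL and 5.17%, 4.89%, 5.63%, 5.06% and 4.27% under CR. The AL libraries formed a high and a low pair, and 4 of the 5 CR libraries lay between them. The means were 5.15% ± 0.793 (SD, n = 4) and 5.0% ± 0.492 (SD, n = 5), and the difference of −0.151 points was again smaller than the pooled SD of 0.638. It turned positive without AL 3 (0.124 points), AL 4 (0.0276) or CR 5 (0.0324) and was −0.381 without AL 5 and −0.373 without AL 1.

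**Figure D1:**
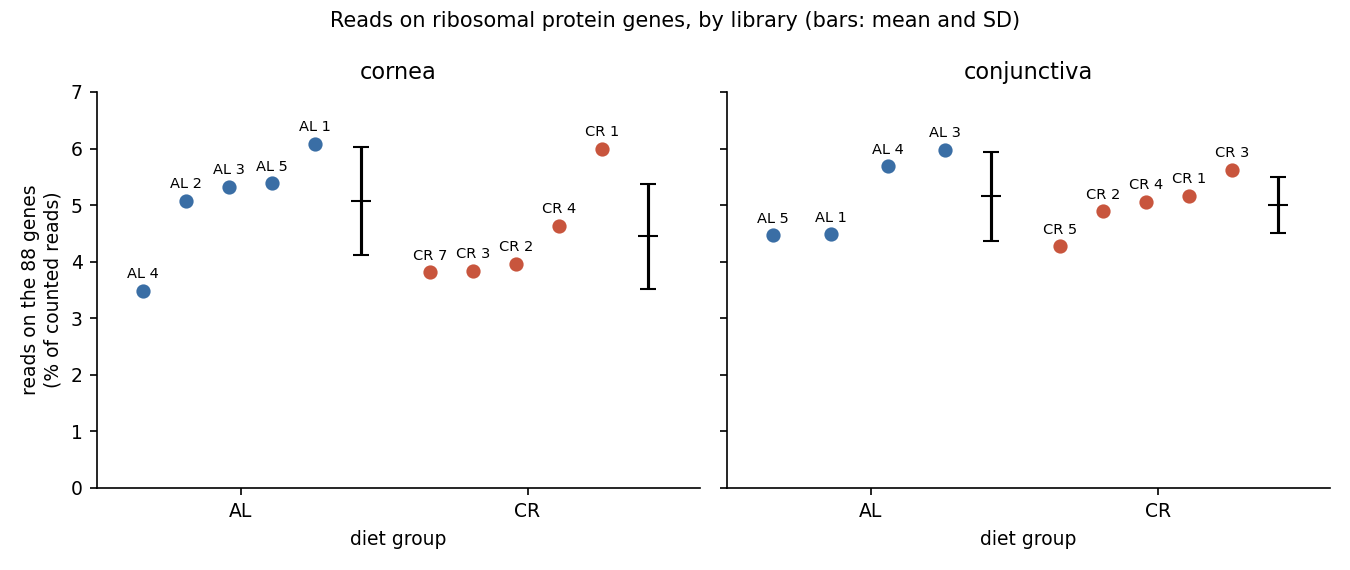
Percent of counted reads on the 88 ribosomal protein genes in each library (points) with the mean and SD of each diet group (bars), cornea on the left and conjunctiva on the right. In the cornea AL 4 (3.49%) stands below and CR 1 (5.99%) above the other libraries of their diets, and the diet groups overlap in both tissues.

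The number of undetected genes was set beside these shares. The share of listed genes with 0 reads was 39.0%, 38.7%, 39.1%, 45.2% and 40.7% in the AL corneas and 39.9%, 46.1%, 45.6%, 42.7% and 47.6% in the CR corneas. The 4 corneas with the most genes at 0 (AL 4, CR 2, CR 3 and CR 7) were the 4 with the lowest share of ribosomal protein reads. In the conjunctiva, genes at 0 made up 35.5%, 34.2%, 33.6% and 37.9% under AL and 36.3%, 37.1%, 33.9%, 38.1% and 40.1% under CR. There AL 3, AL 4 and CR 3 had the fewest genes at 0 and the highest shares. AL 1, with a low share, did not follow: it had fewer genes at 0 than CR 1, CR 2 and CR 4, whose shares were higher. What part the number of detected genes has in the shares was not tested.

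**Figure D2:**
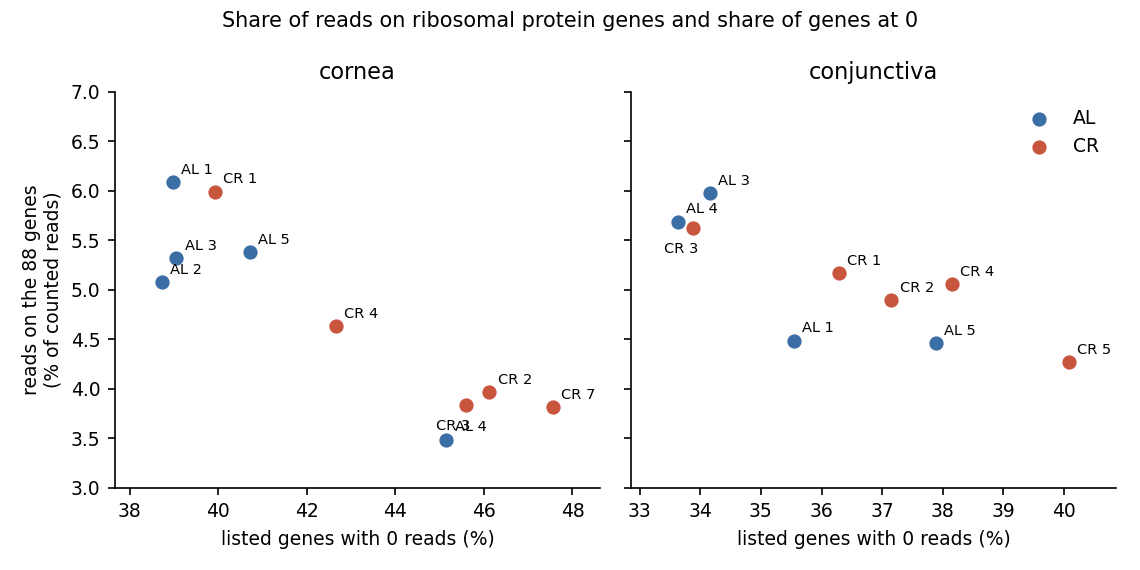
Percent of reads on the 88 genes (vertical) against the percent of listed genes with 0 reads (horizontal), a point per library, blue for AL and red for CR. In the cornea AL 4, CR 2, CR 3 and CR 7, the 4 with the most genes at 0, have the lowest shares.

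No ribosomal protein gene changed with CR in the cornea at the thresholds used, an adjusted p under 0.05 and a fold change over 1.5. Of the 88 genes, 82 had a mean of at least 10 normalized counts and were tested with limma, and 0 of them were called, against 1.22% of all 12278 genes tested (150 genes). Dropping the fold threshold left 0, against 1.53% of all genes. At an unadjusted p under 0.05, 7 genes were lower under CR (8.54% of the 82, against 9.55% of all genes) and 1 was higher (1.22%, against 8.52%). The count of lower genes is thus near the background. The direction was more uneven: 64 of the 82 (78.0%) were lower under CR, against 53.1% of all genes, with a median log2 change of −0.17 against −0.03. That direction held with trimmed mean scaling (63 lower), quantile normalization (62) and scaling to all other reads (65), against 6419, 6012 and 6602 of all 12278 genes. It turned when the share of genes at 0 entered the model, with 16 of 82 lower (against 6194 of all genes) and a median of 0.15. The AL and CR values overlapped in every one of the 82 genes, while they did not in 3.97% of all genes.

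The subunits had similar medians. Among the genes with an Rps symbol, 26 of 32 were lower, with a median log2 change of −0.19, and among those with an Rpl symbol 38 of 50, with a median of −0.17. The 95% intervals were wide enough to matter: their median half-width was 0.33 on the log2 scale, 74 of 82 included 0, and for 46 of 82 the whole interval lay within a 1.5-fold change in either direction. For the others the interval reached past that size.

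**Figure D3:**
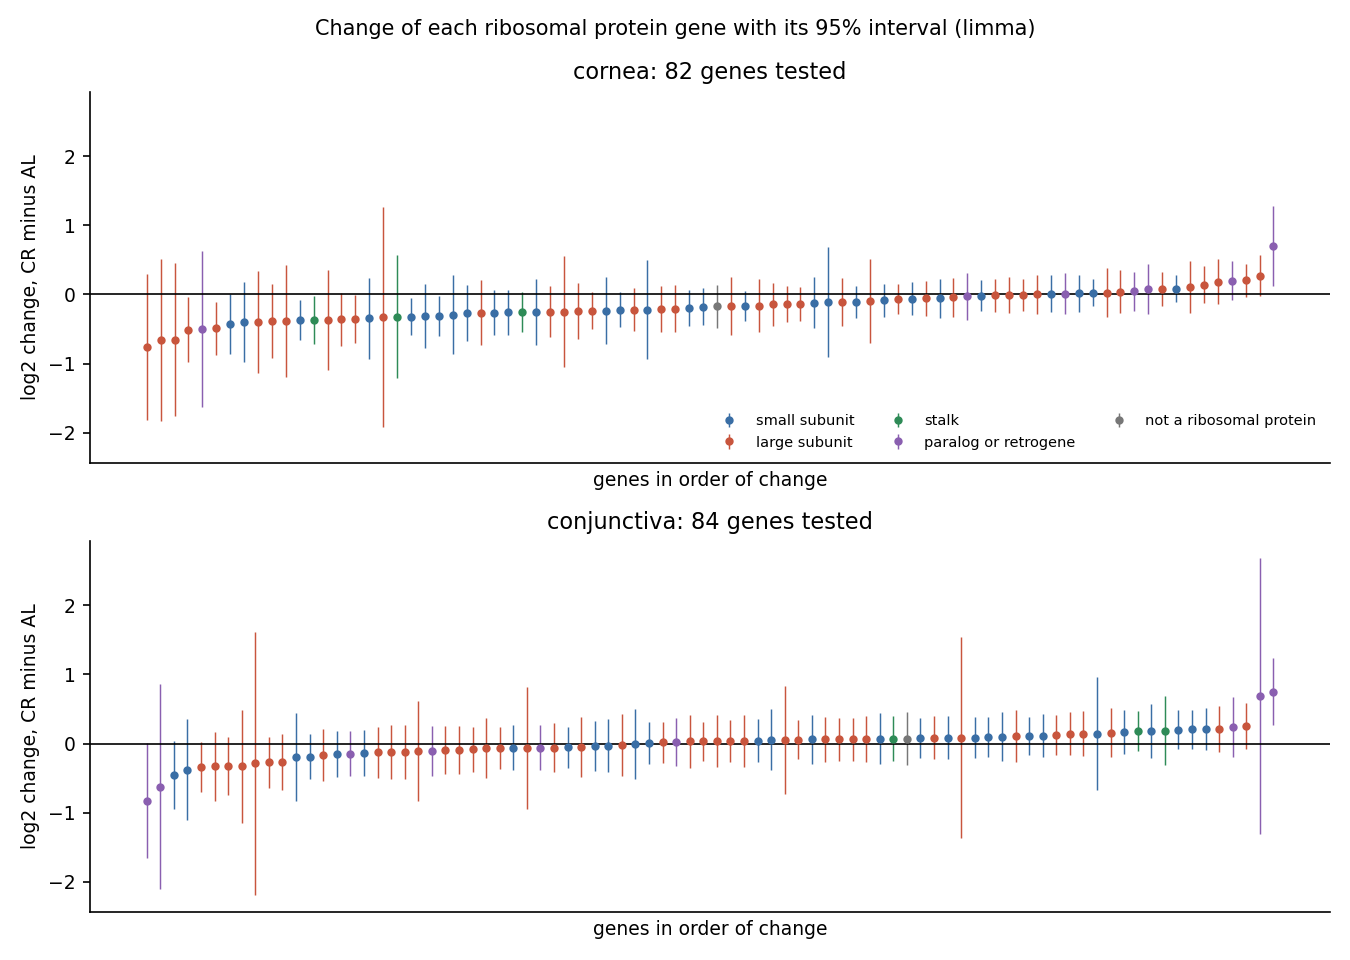
Log2 change CR minus AL of each tested gene with its 95% interval, ordered by size within the cornea (82 genes) and the conjunctiva (84 genes) and coloured by role. In the cornea most points lie below 0, from −0.76 (*Rpl34*) to 0.70 (*Rpl37rt*), while in the conjunctiva they lie on both sides, and most intervals include 0.

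Among the 7 genes lower at an unadjusted p in the cornea were *Rps3* and *Rps3a1* of the small subunit, *Rpl18*, *Rpl14* and *Rpl13* of the large subunit, and *Rplp0* of the stalk. *Rps3* (chr7:99477896-99483738, minus strand, GRCm38), a small subunit protein at the entry of the mRNA channel, shares no identical 75-base exon window with another gene. Its normalized counts were 8696, 7809.9, 7255, 5511 and 7613 under AL and 7808, 4857, 5026, 5239.8 and 5665 under CR. Every CR library but CR 1 lay below every AL library but AL 4, and the log2 change was −0.37 (SE 0.14, limma adjusted p = 0.176).

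*Rpl18* (chr7:45715457-45720836, plus strand), whose exons overlap those of *Sphk2*, had 2721, 2219, 2049.7, 1361 and 2273 under AL and 1884, 1324, 1251, 1864 and 1193 under CR. *Rpl14* (chr9:120571444-120574654, plus strand), which shares 42.6% of its exon windows with the pseudogene *Rpl14-ps1*, had 5764, 4914, 5147, 2891 and 5113 (AL) and 4659, 3094, 2271, 4006 and 2796 (CR). In both genes the AL libraries other than AL 4 lay above every CR library, and AL 4 lay inside the CR range. Their log2 changes were −0.49 (SE 0.18, adjusted p = 0.177) for *Rpl18* and −0.51 (SE 0.22, adjusted p = 0.244) for *Rpl14*. The pseudogene itself, a symbol outside the set, had a log2 change of −0.06 (SE 0.11).

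*Rps3a1* had 3706, 3088, 2940.4, 2266 and 3127 (AL) and 2929.7, 1983, 1986, 2829 and 2454 (CR), a log2 change of −0.31 (adjusted p = 0.245). *Rpl13* had 10140, 9418, 8378, 6587 and 9134 (AL) and 9893, 6355, 5103, 7754 and 5596 (CR), a log2 change of −0.36 (adjusted p = 0.268). In both of them AL 4 was the lowest AL library and CR 1 the highest CR library.

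That pattern ran through the set. AL 4 was the lowest AL cornea for 73 of the 82 genes (89.0%), against 31.6% of all genes tested, and CR 1 the highest CR cornea for 66 (80.5%, against 24.6%). AL 1 was the highest AL cornea for 69 (84.1%, against 19.2%). The lowest CR library was not as fixed: CR 3 for 29 genes, CR 2 for 25, CR 7 for 18 and CR 4 for 10. Without AL 4, 35 genes were lower at an unadjusted p (against 13.7% of all genes) and 5 passed the call (against 4.35%): *Rpl14*, *Rpl18*, *Rps14* and *Rps24* lower, and *Rpl37rt* higher. Without CR 1, 25 were lower (against 12.4%) and 0 passed (against 2.51%). Without any of AL 1, AL 2, AL 3, AL 5, CR 2, CR 3 or CR 7 between 2 and 4 were lower (against 6.55% to 8.97% of all genes). Without CR 4 there were 9 (11%, against 10.7%). *Rps14*, a small subunit protein of the mRNA exit side, had 35133, 28512, 26079, 15417 and 28573 (AL) and 24393, 17780, 14943, 22977 and 17614 (CR) in the cornea, with a log2 change of −0.43 (SE 0.20, adjusted p = 0.289) over all libraries and −0.61 (SE 0.14, adjusted p = 0.0163) without AL 4. The log2 change of *Rps24* was −0.40 (SE 0.26) and −0.62 (SE 0.17, adjusted p = 0.0489) in the same order. No label sets AL 4 or CR 1 apart from the other libraries.

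Few genes were higher under CR in the cornea, and the 5 with the smallest p were *Rpl37rt*, *Rpl10a*, *Rpl27*, *Rps27l* and *Rpl29*. *Rpl10a*, a large subunit protein of the mobile L1 stalk, had 567, 603, 519.5, 531 and 643 under AL and 804, 751, 716, 479 and 753 under CR, a log2 change of 0.27 (adjusted p = 0.325). All CR libraries but CR 4 lay above the highest AL value. *Rpl27* had 10418, 9794, 8584, 7767 and 9399 (AL) and 13047, 9219.7, 9129, 10362 and 11299 (CR), a log2 change of 0.20 (adjusted p = 0.366). *Rpl29* had 1628, 1251, 1241, 1100 and 1579 (AL) and 2338, 1297, 1448, 1304 and 1463 (CR), a log2 change of 0.19 (adjusted p = 0.557), where CR 1 stood apart. The groups overlapped in all 3.

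In the conjunctiva, too, 0 of the 84 tested genes were called, against 0.359% of all 13929 genes (50 genes, also without the fold threshold). At an unadjusted p, 0 were lower, against 4.87% of all genes, and 1 was higher, against 4.53%. The directions were balanced, with 37 lower (44.0%, against 52% of all genes) and 47 higher and a median log2 change of 0.03 against −0.02 over all genes. That balance depended on the scaling. With quantile normalization 65 of 84 were lower (median −0.09), against 6999 of all 13929 genes. With scaling to all other reads 61 were lower, against 8852 of all genes, with a median of −0.06 against −0.10 over all genes. Among Rps symbols 13 of 32 and among Rpl symbols 24 of 52 were lower. The intervals of 63 of 84 genes lay within a 1.5-fold change, and 83 of 84 included 0.

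AL 1 was the lowest AL conjunctiva for 54 of the 84 genes (64.3%, against 21.2% of all genes) and AL 3 the highest for 57 (67.9%, against 28.5%), while the CR libraries shared these places among them. Without AL 1, 11 genes were lower at an unadjusted p (against 4.14% of all genes), 0 passed the call (against 0.194%) and the median turned to −0.07. Without AL 3 the median was 0.10.

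The gene that was higher was *Rpl32l* (chr10:20208490-20208888, plus strand), annotated as a processed pseudogene of *Rpl32*. It had 170.4, 199, 196 and 147 under AL and 263, 266, 224, 297 and 511 under CR. It was the only gene of the set whose groups did not overlap, against 3.87% of all genes, and CR 5 stood above the other CR libraries. The log2 change was 0.75 (SE 0.23), the unadjusted p 0.00441 and the limma adjusted p 0.229. The parent gene *Rpl32* had 6004, 8286, 8174 and 7458 (AL) and 8488, 7222, 7499.8, 9783 and 10620 (CR), with a log2 change of 0.22 (SE 0.16), and 13.2% of the exon windows of *Rpl32l* are also found in *Rpl32* or another gene.

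The other genes with the smallest p in the conjunctiva differed in direction. *Rpl9*, of the large subunit, had 3617, 5595, 5591 and 4468 under AL and 3217, 3021, 4449.9, 4397 and 3922 under CR, a log2 change of −0.34 (SE 0.17, adjusted p = 0.552). *Rpl10a* had 579.6, 1009, 880.0 and 1067 (AL) and 567, 562, 634, 899.5 and 830.0 (CR), a log2 change of −0.33 (adjusted p = 0.639). *Rpl29* had 1049, 1635, 1639.5 and 1716 (AL) and 1021, 1224, 1555, 1339 and 1070.5 (CR), a log2 change of −0.27 (adjusted p = 0.661). The diets overlapped in all 3, and the last pair were on the higher side in the cornea.

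On the higher side in the conjunctiva, *Rpl27* had 7493, 11889, 9788 and 8702 under AL and 11871, 11499, 9772, 12737 and 10059 under CR, a log2 change of 0.25 (adjusted p = 0.644). *Rps13* had 11281, 14076, 11735 and 12729 (AL) and 14531, 13746, 13296, 14269 and 15890 (CR), a log2 change of 0.21 (adjusted p = 0.664), with AL 3 alone reaching into the CR range. In *Rps25*, with 5389.5, 6547, 7254 and 6002 (AL) and 6987, 6725, 7225, 7376 and 7636 (CR), only AL 4 did so, and the log2 change was 0.20 (adjusted p = 0.686). The small subunit protein *Rps26* had 18946, 24879, 23747 and 19444 (AL) and 26349, 24073, 25936, 28016 and 21454 (CR), a log2 change of 0.21 (adjusted p = 0.687).

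The diet change of each gene was also compared between the tissues, as the log2 change in the conjunctiva minus that in the cornea. None of the 82 genes tested in both differed at an adjusted p under 0.05, against 0.0168% of all 11929 genes (2 genes). At an unadjusted p, 4 had a higher change in the conjunctiva (against 3.78% of all genes) and 1 a lower (against 3.7%). Titles with the same number in both tissues may come from the same mouse, and with these titles as a block 1 gene had a higher and 0 a lower change at an unadjusted p, against 2.83% and 2.97% of all genes. Over all libraries the difference was above 0 for 66 of 82 genes, with a median of 0.16 against 0.03 over all genes. The share of all genes with a difference above 0 was not counted. Without conjunctiva AL 1 the difference was above 0 for 54 genes (median 0.07, against 0.03 over all genes). Without cornea CR 1 it was above 0 for 71 genes (median 0.24, against 0.04). *Rpl32l* differed most by p (0.78, SE 0.28, adjusted p = 0.501), followed by *Rpl10a* (−0.60, SE 0.24, adjusted p = 0.577), *Rplp1* (0.43, SE 0.19), *Rps14* (0.61, SE 0.27) and *Rps26* (0.42, SE 0.19).

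The stalk of the large subunit, which recruits the elongation factors, includes *Rplp1*. That gene had the highest mean normalized count in both tissues and the highest level per kilobase of exon, with exons merged over transcripts. *Rplp1* had 36780, 31089, 33197, 21861 and 33333 in the AL and 31780, 26162, 21423, 27805 and 23128 in the CR corneas, and 39082, 45644, 41141 and 33790 in the AL and 45615, 48168, 43784, 45858 and 41562 in the CR conjunctivas. *Rplp0*, the base on which the paired stalk proteins sit, had 10059, 8612, 7559, 5316 and 8645 (AL) and 7271, 5470.2, 4670, 7295 and 6174 (CR) in the cornea, and 5664, 7942, 7200.4 and 6397 (AL) and 6860.3, 6365, 6871, 9418 and 6363 (CR) in the conjunctiva. Its AL corneas other than AL 4 lay above every CR cornea, with a log2 change of −0.37 (SE 0.16, adjusted p = 0.245), and its conjunctival change was 0.07 (SE 0.16). *Rplp2* had 27294, 20252, 23497, 9435 and 23323 (AL) and 29067, 12723, 9539, 22777 and 11681 (CR) in the cornea, and 12080, 21876, 19182 and 11168 (AL) and 20153, 19735, 21973, 16968 and 11371 (CR) in the conjunctiva. It was the widest of the 3, with a cornea AL 4 value below every other cornea. The corneal log2 changes of *Rplp1* and *Rplp2* were −0.25 (SE 0.14) and −0.32 (SE 0.39), and the conjunctival ones 0.18 (SE 0.14) and 0.19 (SE 0.23), with no adjusted p under 0.337.

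The small subunit genes *Rps6*, *Rps19* and *Rps27a* did not pass the test in either tissue. *Rps6*, the target of the S6 kinases downstream of mTOR, had 962, 768, 668, 651 and 871 under AL and 981, 621, 703, 484 and 896 under CR in the cornea, a log2 change of −0.12 (SE 0.18). In the conjunctiva it had 597, 1109.8, 1197 and 1362 (AL) and 619, 563, 787, 896 and 919.8 (CR), where all AL values but AL 1 lay above every CR value, with a log2 change of −0.46 (SE 0.23, adjusted p = 0.560). Of its exon windows, 84.1% are also found in another gene, mainly pseudogenes of *Rps6*.

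*Rps19*, the gene most often mutated in Diamond-Blackfan anemia, had 7708, 6216, 6632, 3279 and 6489 (AL) and 6983, 3819, 3416, 5815 and 3812 (CR) in the cornea, and 5045, 9437, 8146 and 5034 (AL) and 6917, 6652, 8742, 7623 and 5081 (CR) in the conjunctiva. Its log2 changes were −0.35 (SE 0.26) and 0.05 (SE 0.21). *Rps27a*, made as a fusion with ubiquitin, had 4792, 4564, 4763, 2562 and 4065 (AL) and 5446, 2952, 3549.5, 3467 and 2433 (CR) in the cornea, and 2486, 6286, 5788 and 1948 (AL) and 4063, 3761, 5891, 3512 and 3368 (CR) in the conjunctiva. Its conjunctival AL libraries split into a high pair (AL 3, AL 4) and a low pair (AL 1, AL 5), and the log2 changes were −0.23 (SE 0.22) and 0.15 (SE 0.36).

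On the large subunit, *Rpl5* and *Rpl11* bind 5S RNA and, when the ribosome is not assembled, the p53 regulator *Mdm2*. *Rpl5* had 2319, 1747, 1837, 1429 and 2209 (AL) and 2587, 1183, 1482, 1447 and 1995 (CR) in the cornea, and 1337, 2757, 2352 and 1776 (AL) and 1448, 1493, 2072, 1710 and 1581 (CR) in the conjunctiva, with log2 changes of −0.17 (SE 0.19) and −0.27 (SE 0.19). *Rpl11* had 10438, 8508, 7879, 6314 and 8448 (AL) and 10191, 7519.7, 7789.9, 8302 and 7296 (CR) in the cornea, and 8046, 9689.8, 9740.3 and 7929 (AL) and 9537, 8747, 8986, 10064 and 8581 (CR) in the conjunctiva. Its log2 changes of −0.01 (95% interval −0.27 to 0.26) and 0.06 (−0.22 to 0.34) kept within a 1.5-fold change.

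*Rpl10*, which joins the large subunit last, had 4071, 3136, 3270, 1816 and 2840.4 (AL) and 4934, 2214, 2537, 2905 and 1901 (CR) in the cornea, and 2384, 5328, 6013 and 3268 (AL) and 2864, 3043, 3714, 3366 and 2910.1 (CR) in the conjunctiva. CR 1 was the highest cornea of either diet, and the log2 changes were −0.10 (SE 0.27) and −0.33 (SE 0.23). *Rpl38*, whose loss in mice alters translation of Hox messages and the axial skeleton, had 6102, 4599, 5404, 3695 and 4791 (AL) and 6284, 4283, 4285, 5105 and 4568 (CR) in the cornea, and 6888, 7439, 6506 and 6104 (AL) and 8081, 8286, 6856, 6992 and 6498 (CR) in the conjunctiva. Its corneal means under AL and CR were 4918 ± 901 and 4905 ± 841 (SD, n = 5 each), a log2 change of 0.00 (95% interval −0.28 to 0.28), and the conjunctival change was 0.12 (SE 0.14). *Rpl41*, which encodes a very short basic peptide, had 16813, 12944, 15786, 5452 and 12356 (AL) and 16110, 7423, 5397, 12696 and 2874 (CR) in the cornea, and 9353, 15343, 13494 and 6391 (AL) and 14733, 13439, 12560, 9548 and 4474 (CR) in the conjunctiva. Within each diet it ran over a several-fold range, so that changes of −0.66 (SE 0.51) and −0.06 (SE 0.39) could not be told from 0.

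How far a gene ranged between libraries of the same diet was similar in both tissues. The SD of the log2 values within diet was computed for the 78 genes with a mean of at least 500 in both tissues. Corneal values ran from 0.09 (*Rps25*) to 0.84 (*Rpl41*), and conjunctival ones from 0.08 (*Rps29*) to 0.97 (*Rpl36al*). Across these genes the SDs of the 2 tissues had a Spearman rho of 0.82, a description over genes that share the libraries of each tissue and are no independent replicates. Libraries of both tissues may also share mice. No rho was taken over other genes, so whether this is particular to the set was not tested. Of the 10 widest genes in each tissue, 8 (80.0%) were shared, among them *Rpl23*, *Rpl28*, *Rpl35*, *Rpl36al*, *Rpl41*, *Rplp2* and *Rps23*. Of the 10 narrowest, 5 (50.0%) were shared: *Rps10*, *Rps13*, *Rps15a*, *Rps25* and *Rps29*. These lists were formed after the values were seen.

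*Rpl23*, a large subunit protein and one of the wide genes, had 19116, 15573, 16230, 5078 and 17756 (AL) and 21453, 6605, 5782, 9046 and 6076 (CR) in the cornea, and 5838, 16493, 15638 and 6845 (AL) and 6250.5, 6549.5, 13108, 8988 and 6901 (CR) in the conjunctiva. AL 4 lay far below the other AL corneas and CR 1 far above the other CR corneas, and in the conjunctiva AL 3, AL 4 and CR 3 were highest. *Rpl28* had 9073, 6824, 8617, 3626 and 9788 (AL) and 9899.5, 5028, 3697, 7133 and 3773 (CR) in the cornea. By contrast *Rps25*, a small subunit protein at the head, had 5382, 4654, 4825, 5110.2 and 5033 under AL and 5909, 5346, 5215, 4929 and 5099 under CR. AL 4 was here above 3 of the other AL corneas, and the corneal log2 change was 0.08 (95% interval −0.11 to 0.28). *Rps29* in the conjunctiva had 14688, 13742, 13155 and 14434 (AL) and 15146, 16591, 14422, 15250 and 14220 (CR).

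Spread was only weakly related to the measures of gene structure. With exon length, merged over transcripts, its Spearman rho over the 78 genes was 0.08 (cornea) and 0.06 (conjunctiva). It was 0.04 and 0.13 with the share of exon windows found in other genes. With the length of the C and T run at the start, over 58 genes, it was 0.11 and 0.15. In the windows printed above, *Rpl35*, *Rpl28* and *Rplp2* with a long run and *Rpl41* with a short one were wide, and *Rps10* with a long run and *Rps25* with a short one were narrow. Subtracting the mean of all tested ribosomal protein genes in each library lowered the median SD of corneal values from 0.30 to 0.19 and that of conjunctival values from 0.26 to 0.22. That mean is formed from the same genes, so part of the drop is built in. No other gene set was treated in this way.

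**Figure D4:**
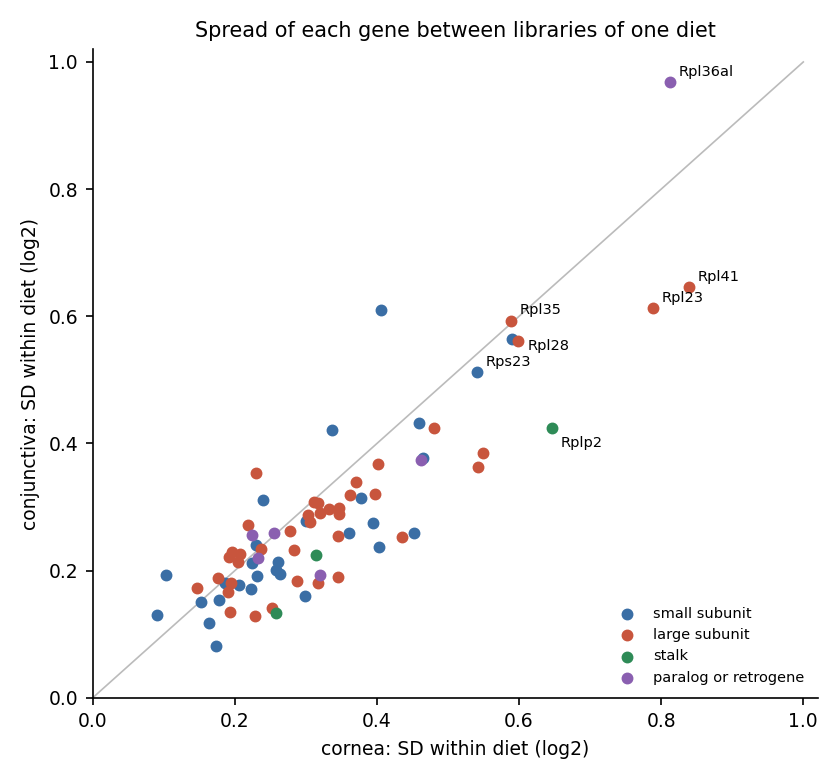
SD of log2 values within diet in the cornea (horizontal) and the conjunctiva (vertical) for 78 ribosomal protein genes with a mean of at least 500 in both tissues, coloured by role, with the line of equal spread. The 7 labelled genes are among the 10 widest in each tissue, and most genes lie under 0.40 on both axes.

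Some ribosomal protein genes serve as reference genes in PCR, and their spread was set beside that of other references. In the cornea the within-diet SD on the log2 scale was 0.54 for *Rpl13a*, 0.36 for *Rps18*, 0.33 for *Rpl19*, 0.31 for *Rplp0* and 0.20 for *Rpl32*. *Rpl13a* was thus the least even of the 5. For *B2m*, *Gapdh*, *Hprt* and *Actb* it was 0.15, 0.18, 0.27 and 0.28, and for *Ppia*, *Tbp* and *Gusb* it was 0.40, 0.46 and 1.39. Only *Gusb* was wider than *Rpl13a*, at a mean of 37.5 normalized counts, and *Tbp* had a mean of 79.4. In the conjunctiva the 5 ribosomal protein genes had 0.36, 0.26, 0.30, 0.22 and 0.23 in the same order. There *B2m*, *Gapdh*, *Hprt* and *Actb* had 0.25, 0.41, 0.15 and 0.27, and *Ppia*, *Tbp* and *Gusb* 0.31, 0.25 and 0.21.

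The paralogs and retrogenes were read against their parent genes, as a percent of the parent's normalized count in the same library. Reads of near-identical copies may have been split or dropped when reads were counted, so these values are uncertain where windows are shared. *Rpl22l1*, the alternative to *Rpl22* in the large subunit, stood at 13.5% ± 1.89 (AL) and 14.0% ± 1.98 (CR) of *Rpl22* in the cornea and at 14.8% ± 1.58 and 14.7% ± 1.68 in the conjunctiva. The pair kept nearly the same ratio in all 4 groups. *Rpl22l1* had 1298, 1124, 1042, 1012 and 841 (AL) and 1169.7, 863, 1140.2, 1014 and 1285 (CR) in the cornea, and 1148, 1238, 1061 and 1461 (AL) and 1068, 1109.8, 1053, 1392 and 1671 (CR) in the conjunctiva. *Rpl22* had 8945, 7740, 8389, 6628 and 7879 (AL) and 9418, 7401, 8099, 6232 and 8227 (CR) in the cornea, and 7513, 8885, 8035 and 8702 (AL) and 7904, 7981, 8044, 8413 and 10138 (CR) in the conjunctiva.

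*Rpl37rt* (chr5:115102923-115110268, minus strand), a transcribed retrogene of *Rpl37*, shares 90% of its exon windows with other genes, mainly *Rpl37*. Its corneal values were 2134, 2305, 1553, 3899.7 and 1399 under AL and 3019.5, 3411, 4309, 2598 and 4064 under CR, against 25375, 20582, 23651, 14494 and 23030 (AL) and 21930, 18541, 15721, 20588 and 14556 (CR) for *Rpl37*. AL 4, the lowest library for *Rpl37*, was the highest AL library for *Rpl37rt*, and the ratio was 8.41%, 11.2%, 6.57%, 26.9% and 6.07% under AL and 13.8%, 18.4%, 27.4%, 12.6% and 27.9% under CR. Every CR library lay above every AL library but AL 4. The log2 change of *Rpl37rt* was 0.70 (SE 0.26, adjusted p = 0.200), and 0.92 (SE 0.17, adjusted p = 0.00884) without AL 4. In the conjunctiva *Rpl37rt* had 3519, 2757, 2796 and 4288 (AL) and 4647, 3985, 2331, 4598 and 4397 (CR), a log2 change of 0.24 (SE 0.21), and stood at 15.1% ± 4.97 and 17.2% ± 5.22 of *Rpl37*.

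*Rpl36al*, a paralog of *Rpl36a*, was the gene with the widest conjunctival spread. It had 2132, 1335, 1900.2, 608 and 2238 (AL) and 2935, 776, 992, 747 and 762 (CR) in the cornea, and 338, 2944, 2445 and 1359 (AL) and 647, 888, 1336, 834 and 798 (CR) in the conjunctiva. *Rpl36a* had 11162, 8981, 9523, 4614 and 10544 (AL) and 13376, 5585, 5418, 5575 and 5171 (CR) in the cornea, and 5186, 11615, 10473 and 6977 (AL) and 7051, 7368, 10194, 8083 and 7819 (CR) in the conjunctiva. CR 1 stood far above the other CR corneas for both genes, and AL 1 was the lowest conjunctiva for both. The ratio was 17.7% ± 3.47 and 16.5% ± 3.62 in the cornea and 18.7% ± 8.47 and 11.0% ± 1.58 in the conjunctiva, where the AL libraries ran from 6.51% to 25.4%. The log2 changes of *Rpl36al* were −0.50 (SE 0.50) and −0.62 (SE 0.63).

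*Rps4l*, a retrogene copy of the X-linked *Rps4x*, had 877, 985, 953, 789 and 1059.8 (AL) and 904, 1122, 929, 1153 and 660.3 (CR) in the cornea, and 599.7, 726, 606 and 679 (AL) and 752, 631, 668, 606 and 414 (CR) in the conjunctiva. *Rps4x* had 4035, 3558, 2966, 2553 and 3574 (AL) and 3775, 2733, 3086, 3678 and 3500.5 (CR) in the cornea, and 3390.1, 4204, 4364 and 3454 (AL) and 3398, 2740.3, 3963, 4347 and 3018 (CR) in the conjunctiva. The copy stood at 28.4% ± 4.09 and 29.1% ± 8.38 of *Rps4x* in the cornea and at 17.1% ± 2.40 and 17.9% ± 4.43 in the conjunctiva, and neither gene moved with diet by more than its error. *Rpl7l1*, a nucleolar relative of *Rpl7*, had 650.2, 584, 538, 646 and 495 (AL) and 549.8, 445, 508, 808 and 860.0 (CR) in the cornea, and 544, 659.8, 685 and 582 (AL) and 516, 504, 559, 720.3 and 505 (CR) in the conjunctiva. *Rpl7* had 10410, 9796, 8043, 8462 and 9019.8 (AL) and 8567, 7907, 8032, 9415 and 9912 (CR) in the cornea, and 10568, 11404, 9219 and 9011 (AL) and 10848, 8352, 9938, 11282 and 11220 (CR) in the conjunctiva. The ratio stayed between 4.50% and 8.68% in all libraries.

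*Rpl3l* replaces *Rpl3* in skeletal and heart muscle. It was at 0 in all 10 corneas, where the summed muscle markers (*Acta1*, *Ckm*, *Mylpf*, *Tnnt3*, *Myh4*) were at 0.884–66.8. In the conjunctiva it had 224, 62.8, 449.7 and 252 under AL and 236, 483, 1104, 345 and 80.9 under CR. The muscle markers there summed to 46862, 10518, 45043 and 43976 under AL and to 34014, 57300, 104560, 55150 and 12256 under CR. CR 3 and CR 2 were highest and AL 3 and CR 5 lowest for both *Rpl3l* and the muscle sum. The log2 change of 0.69 (SE 0.85, adjusted p = 0.856) was smaller than its error. *Rpl3* had 4692, 4162, 4032, 2739.5 and 4148 (AL) and 4593, 3044, 2726, 3990.1 and 2886 (CR) in the cornea, and 4643, 6823, 5508 and 3814 (AL) and 4761, 4005, 5679, 6537 and 5347 (CR) in the conjunctiva, so *Rpl3l* stood at 0.921% to 19.5% of it.

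**Figure D5:**
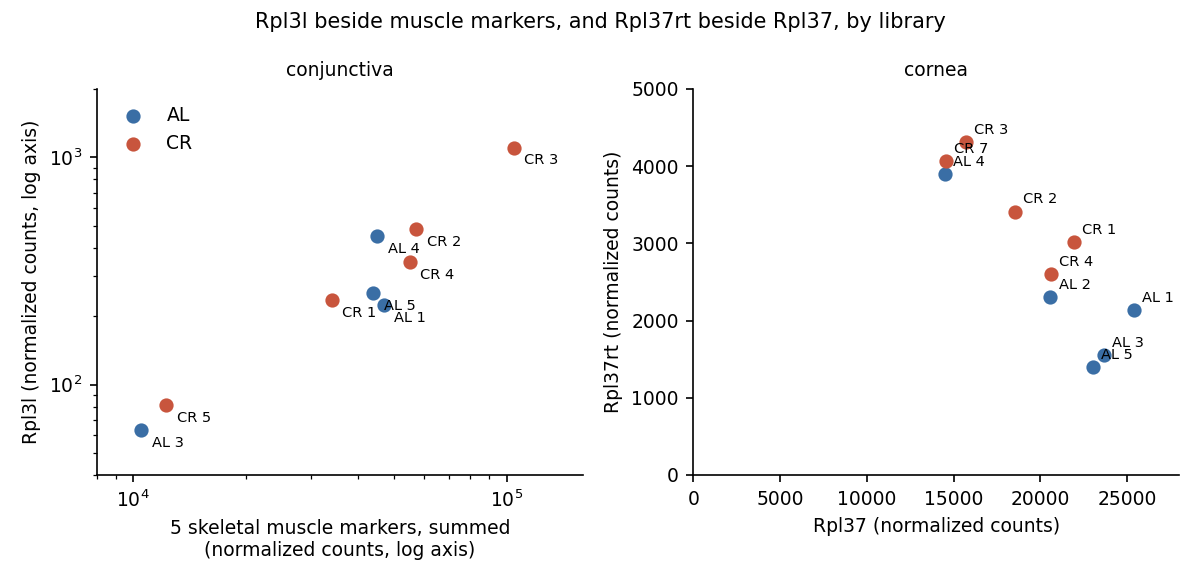
Left, conjunctiva: normalized counts of *Rpl3l* against the sum of 5 skeletal muscle markers per library, both on log axes, where CR 3 is highest and AL 3 lowest on both. Right, cornea: normalized counts of *Rpl37rt* against *Rpl37* per library on linear axes, where CR 3, CR 7 and AL 4 have the most *Rpl37rt* and the least *Rpl37*.

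*Rpl39l*, a relative of the exit tunnel protein *Rpl39* best known from testis, was near the floor in the cornea (2.2, 0, 0, 2.65 and 6.18 under AL and 0, 12.2, 0.758, 21.5 and 0 under CR) and was not tested there. In the conjunctiva it had 47.4, 70.7, 77.5 and 70.9 (AL) and 32.1, 33.3, 73.4, 41.0 and 19.9 (CR), with all CR libraries but CR 3 below the lowest AL value, a log2 change of −0.83 (SE 0.39, adjusted p = 0.532). *Rpl39* had 3489, 2919, 3004, 2319.5 and 2649 (AL) and 3676, 2576, 3308, 2805 and 3503 (CR) in the cornea, and 2538, 2769.5, 2832 and 3832 (AL) and 3615, 3245, 2599, 2942 and 4328 (CR) in the conjunctiva. *Rps27l*, a p53-inducible relative of *Rps27*, had 1347, 1215, 1308, 925 and 1154 (AL) and 1619, 1206, 1129, 1266 and 1636 (CR) in the cornea, and 1173, 1829, 1314 and 1724 (AL) and 1589.7, 1512, 1312, 1339 and 1397 (CR) in the conjunctiva, with log2 changes of 0.20 (SE 0.13, adjusted p = 0.444) and −0.06 (SE 0.15). *Rpl32l* in the cornea had 243, 224, 236, 220.2 and 223 (AL) and 276, 252, 191, 179 and 242 (CR), a log2 change of −0.03 (SE 0.16), against 7702, 6171, 6581, 5761 and 6375 (AL) and 8873, 6320.1, 6382, 5939 and 7184 (CR) for *Rpl32*. *Rps19bp1*, which is no ribosomal protein, had log2 changes of −0.17 (SE 0.15) in the cornea and 0.07 (SE 0.18) in the conjunctiva.

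Levels differed widely between the genes. By mean normalized count the 3 highest were *Rplp1* (28656), *Rpl37a* (23431) and *Rps14* (23142) in the cornea and *Rplp1* (42738), *Rps21* (29547) and *Rpl37a* (27167) in the conjunctiva. Per kilobase of exon, with all annotated exons of a gene merged, *Rplp1* ranked 1 with 57427 in the cornea and 85647 in the conjunctiva. *Rps21* ranked 2 with 25490 and 36478. *Rpl23a*, *Rpl37a* and *Rps29* followed in the cornea, and *Rps29*, *Rpl23a* and *Rpl37a* in the conjunctiva, at 15961–18466 and 19267–21108, steps that are smaller than the spread between libraries. Merged length can exceed that of an mRNA, so these ranks depend on the annotation. It was 499 bases for *Rplp1* and 2072 for *Rplp2*. Levels per length also assume reads along the whole transcript. The study's methods describe libraries primed with oligo(dT) using a Lexogen kit, and the labels a stranded TruSeq mRNA kit, so this could not be settled.

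At the other end, several genes that every ribosome needs were listed at or near 0. *Rpl26* and the retrogenes *Rpl10l* and *Rps27rt* were listed at 0 in every library of both tissues, which allows up to 3 reads in each. *Rps27* had at most 2.19 normalized counts in the cornea and 8.77 in the conjunctiva, *Rpl34* a mean of 25.5 and 42.2, and *Rpl30* one of 38.0 and 38.4. *Rps27* shares 42.4% of its exon windows with other genes, *Rps27rt* 90.3%, *Rpl26* 32.6%, *Rpl34* 8.35% and *Rpl30* 65.3%. Across the 88 genes the median was 30.9%, with 27 genes above 50% and 5 at 0, among them *Rps3*, *Rpl39l*, *Rpl3l* and *Rps19bp1*, and 38 genes had exons that overlap those of another gene. How reads that match several places were treated is not given in the sources used here. Of the 88 genes, 6 in the cornea and 4 in the conjunctiva fell below the filter: *Rpl10l*, *Rpl26*, *Rps27* and *Rps27rt* in both, and *Rpl3l* and *Rpl39l* in the cornea.

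*Rpsa* and *Fau*, outside the pattern, did not pass the test either. In the cornea the log2 change was −0.19 for *Rpsa* (SE 0.11, adjusted p = 0.368) and −0.11 for *Fau* (SE 0.13). In the conjunctiva the changes were −0.05 (SE 0.16) and 0.15 (SE 0.15). *Rpsa* encodes a small subunit protein also known as the laminin receptor, and *Fau* one that is made as a fusion with a ubiquitin-like protein.

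Other lists of the translation machinery gave 0 called genes in either tissue. Of 18 other genes whose messages carry the TOP tract, among them elongation and initiation factors, 11 (61.1%) were lower in the cornea (median log2 change −0.13). At an unadjusted p, 2 were lower and 2 higher (11.1% each, against 9.55% and 8.52% of all genes). *Hnrnpa1* (0.70, adjusted p = 0.116), *Eef1g* (−0.68, adjusted p = 0.177), *Eef1d* (−0.74, adjusted p = 0.209) and *Btf3* (0.53, adjusted p = 0.209) had the smallest p, and they went both ways. Of 30 ribosome biogenesis genes, 8 (26.7%) were lower and 22 higher in the cornea, with a median of 0.15, while 53.1% of all genes were lower. At an unadjusted p, 5 were higher (16.7%, against 8.52% of all genes) and 2 lower (6.67%, against 9.55%). Among them the nucleolar protein *Ncl* had a mean of 4769 ± 282 under AL and 6055 ± 398 under CR (SD, n = 5 each), a log2 change of 0.34 (SE 0.09, adjusted p = 0.0668). The log2 change was 0.47 for the RNA polymerase I factor *Ubtf* (adjusted p = 0.133), 0.32 for *Gnl3* (adjusted p = 0.177) and −0.43 for *Rrn3* (adjusted p = 0.202).

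Of 77 mitochondrial ribosomal protein genes tested in the cornea, 55 (71.4%) were lower, with a median log2 change of −0.20. At an unadjusted p, 8 were lower (10.4%, near the 9.55% of all genes) and 2 higher. *Mrpl3* (0.53, adjusted p = 0.143), *Mrpl53* (−0.44, adjusted p = 0.159), *Mrps12* (−0.41, adjusted p = 0.166) and *Mrpl28* (−0.67, adjusted p = 0.187) had the smallest p. As a share of the list, the lower genes were above the 53.1% of all genes, as for the cytosolic set. In the conjunctiva 10 of the 18 TOP genes (median −0.01), 17 of 30 biogenesis genes (median −0.06) and 50 of 78 mitochondrial ribosomal protein genes (median −0.05) were lower, with at most 1 lower and 2 higher genes at an unadjusted p in a list. *Hnrnpa1*, *Riok1*, *Dkc1* and *Mrps9* had log2 values CR minus AL of −0.49, 0.43, 0.43 and 0.35, with adjusted p of 0.528, 0.376, 0.441 and 0.540, and none of these passed.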

How the data were processed

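The data are 10 corneal and 9 conjunctival libraries, numbered within tissue and diet and grouped by their titles. The study took several tissues from each mouse, so libraries of both tissues may share mice. Per the study's methods, single reads of 75 bases were trimmed with cutadapt, aligned with STAR and counted per gene with HTSeq. The authors deposited log2 values of read counts divided by a DESeq2 size factor plus 1, each tissue in a table of its own. The methods name mm10 and the labels GRCm39, and the methods describe an oligo(dT)-primed Lexogen library where the labels name a TruSeq stranded mRNA kit. Tool versions, the strand setting and the treatment of multi-mapped reads are not given in the sources used here.

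The log2 transformation was undone to give normalized counts and whole reads (100% of values within 0.01 of a whole read). Of 24557 features per table, 5 with a repeated symbol were left out. Genes averaging 10 or more normalized counts over a tissue's libraries were tested, CR against AL, with limma 3.58.1 (trend and robust settings, statmod 1.5.0, R 4.3.3) on log2(normalized count + 1), with Benjamini-Hochberg adjustment over all genes tested. Fold changes are on that scale and understate the change of low genes. The design foresaw this unit. A gene was called at an adjusted p under 0.05 and a fold change over 1.5. The change between tissues was tested as the difference of both fits, taken as independent, since the tables were normalized separately. P-values measure only the spread between these libraries. A count of 0 allows up to 3 reads, and intervals of shares (Wilson, 95%) cover counting error only. The fits were tested on simulated data first.

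Exon positions and 75-base windows shared between genes came from the GENCODE M21 annotation of GRCm38 and were used by symbol, and start sites from RefSeq. Genes were named by rule: the stalk genes, 8 further members with a known role, 8 paralog pairs, the 5 higher and 5 lower members with the smallest p in each tissue, the 3 highest and lowest by level, reference genes and, in each related list, at most 4 genes by p. *Rpl23*, *Rpl28*, *Rps14*, *Rps24*, *Rps25* and *Rps29* were also named where a result turned on them, after their values were seen. Some genes the rule names are not reported here. The members and lists were chosen with earlier results of these data known. Alternatives were other pseudocounts, filters, scalings, limma voom on the recovered reads, array weights, replicate number as a block, a covariate for the percent of undetected genes, pseudogene reads added to the parent, and leaving out each library.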

Additional observations from a re-analysis of the deposited data

Results flagged for a closer look

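In 11 of 132 groups a library stood apart from its group by Dixon's test at 95%. A group was the libraries of a tissue and diet for a gene, for the share of reads on the set or for the share of undetected genes. All 11 were for genes. Chance gives this in about 1 of 20 independent groups. The genes share libraries and many move together, so the count cannot be held against that rate. Values are normalized counts, with the nearest other library of the group in parentheses.

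In the cornea CR 1 stood above the other CR libraries for *Rpl36a* at 13376 (5585), for its paralog *Rpl36al* at 2935 (992), for *Rpl29* at 2338 (1463) and for *Rps3* at 7808 (5665). *Rpl10a* was low in CR 4 at 479 (716). In the conjunctiva, *Rplp0* was at 9418 (6871) and *Rpl7l1* at 720.3 (559) in CR 4, *Rps27a* at 5891 (4063) in CR 3, and *Rpl22* at 10138 (8413) and *Rpl32l* at 511 (297) in CR 5. *Rpl29* was low in AL 1 at 1049 (1635). What sets these libraries apart was not tested.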

How the results depend on the processing

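With 5 or fewer libraries a group and a wide spread along the whole set, changes under about 1.5-fold were within the interval of many genes. In the cornea the 0 calls stood at other pseudocounts, filters and scalings, with limma voom and with pseudogene reads added, and became 2 with array weights (*Rpl14*, *Rpl18*, against 5.74% of all genes) and 0 to 5 when a library was left out (5 without AL 4). The 7 corneal genes lower at an unadjusted p became 32 with array weights (against 15.4% of all genes) and 0 with a covariate for the percent of undetected genes (5.7%). They became 2 to 35 over left-out libraries. Scaling to the set's own mean, an alternative chosen after seeing the data, left 0 lower genes (3.82%). It removes the mean change of the set by construction, so its counts cannot show whether the set moved with diet. The 1 higher gene became 14 with the covariate (against 6.2% of all genes), 2 with that scaling (8.33%) and 0 to 2 over left-out libraries. The corneal median log2 change of −0.17 became 0.149 with the covariate and −0.291 to −0.0945 over left-out libraries. In the conjunctiva the 0 lower genes became 1 at a pseudocount of 10 (against 5.15% of all genes), 3 with quantile normalization (4.85%), 4 with scaling to other reads (7.98%), 2 with array weights (6.91%), 1 with the covariate (4.87%) and 0 to 11 over left-out libraries (11 without AL 1). The 1 higher gene became 2 with array weights (5.94%), 4 with the covariate (4.38%) and 1 to 2 over left-out libraries, and the median of 0.03 ran from −0.0714 to 0.101. Over left-out libraries, 6.55% to 13.7% of all genes were lower and 6.61% to 10.8% higher at an unadjusted p in the cornea. In the conjunctiva 3.83% to 6.67% were lower and 3.56% to 6.67% higher. The count of ribosomal protein genes whose change differed between tissues was 0 without any single library. The difference in share was −1.02 to −0.368 points (cornea) and −0.381 to 0.124 points (conjunctiva) over left-out libraries, and was −0.715 and −0.158 points when *Rn45s* reads were taken out of the total. The cause of these shifts was not tested.

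With replicate number as a block, 1 corneal gene was lower and 0 were higher at an unadjusted p (against 5.86% and 5.4% of all genes). The corneal median was −0.114, and 1 conjunctival gene was lower (against 4.36%). Cornea AL 5 and CR 7 and conjunctiva CR 2 have no library of the same number in the other diet. The block absorbs them, so these fits rest on fewer libraries, and the counts reflect that loss as well as the pairing. AL and CR libraries of the same number and tissue were mostly not alike in their deviations from the diet mean. The correlation was 0.29, −0.16, −0.17 and −0.30 for corneas and between −0.06 and 0.05 for conjunctivas. Only number 1 of the cornea correlated best with its own number. Whether the numbers stand for a shared mouse or batch was not tested. Within titles shared by both tissues, the block left 0 genes that differed between tissues. Over 713 corneal and 704 conjunctival fits of the named genes, 5 newly passed the call, beside *Rps14* and *Rps24* (outside these fits), which passed without AL 4. None reversed a call, and 59 and 57 had the other sign.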
